A study of Rattus norvegicus with 6 samples.

Results

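The proteasome genes were described on 6 single-colour Affymetrix arrays of primary rat hippocampal neurons. They are the genes whose platform symbol begins with Psma to Psmg followed by a digit, with the brightest probe set taken where a gene had several. The rule found 48 of the 18166 genes that could be named and tested, on 49 probe sets. Of these, 43 are genes of the proteasome, its activators or its assembly, and 5 match by name only. The tested neurons received an adeno-associated virus (AAV) carrying a short hairpin RNA (shRNA) against Ncoa3, a coactivator recruited by nuclear receptors, and the controls received the same kind of virus with a control shRNA. All cultures came from hippocampi of embryos at day 18, were kept with 10 µM FUDR, a nucleoside analogue that blocks dividing cells, were infected at 4 days in vitro with 1800000 infectious units per ml, and gave RNA at 14 days in vitro. Each of 3 numbered experiments contributed 1 Ncoa3 shRNA array and 1 control shRNA array. The RNA is that of the whole culture, so fewer cells of a type and less RNA per cell cannot be told apart. No source used here gives the shRNA sequences, the promoters that drove them or the share of infected cells.

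The proteasome degrades proteins that carry ubiquitin chains. Its 20S core is a barrel of 2 kinds of ring, the outer built of alpha subunits (Psma genes) and the inner of beta subunits (Psmb genes), of which Psmb5, Psmb6 and Psmb7 hold the proteolytic sites. The 19S regulatory particle, built of ATPases (Psmc genes) and non-ATPase subunits (Psmd genes), caps the core, receives ubiquitylated proteins and unfolds them. Dedicated chaperones assemble both parts and leave the finished particle. Interferon can induce 3 replacement beta subunits that form the immunoproteasome. In neurons, proteasome activity takes part in the turnover of synaptic proteins.

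Ncoa3 was lower on the Ncoa3 shRNA array of each experiment. Its normalized log2 signal was 7.60, 7.60 and 7.45 on the Ncoa3 shRNA arrays of experiments 1, 2 and 3, against 8.63, 8.72 and 8.22 on the control shRNA arrays, a difference of -0.97 ± 0.142 (SE; limma's adjusted p = 0.00747). The call was lost without experiment 1 (adjusted p = 0.130) or experiment 2 (0.122). The median of the deposited values averaged 6.86 ± 0.0910 on Ncoa3 shRNA arrays and 7.15 ± 0.0899 on control shRNA arrays (SD, n = 3 each), and the median gene differed by -0.25. The values below were therefore put on 1 common distribution (quantile normalization) unless they are called deposited. The highest deposited value was 14.00 on all 3 Ncoa3 shRNA arrays and 14.05 on all 3 control shRNA arrays, and any step the authors ran group by group cannot be told apart from the group. Among the 43 proteasome genes, 6 had the same deposited value on all 3 Ncoa3 shRNA arrays and 3 on all 3 control shRNA arrays, so their spread within that group comes from the normalization alone. All 10 listed markers of neurons were measured. Their mean log2 signal ran from 12.16 to 12.26 on the Ncoa3 shRNA arrays and from 12.26 to 12.31 on the control shRNA arrays. Of the 10 markers 1, Gad2, fell (-0.42; limma's adjusted p = 0.0349), as did 9.04% of all genes. The call of Gad2 was lost after median centring, among brighter genes alone (0.0742) and in 7 of 9 fits with fewer arrays, all but those without Ncoa3 shRNA replicate 1 or control shRNA replicate 3 (0.0717 to 0.227).

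Calls among the members were counted beside the share of all genes and of brighter genes. Of all 48 members, 3 rose (Psmb3l2, Psmd8 and Psmg1), 1 fell (Psmd6) and 44 were not called by limma (adjusted p above 0.05), so 8.33% of the members were called. Over all genes 19.5% passed, 10.5% higher and 9.04% lower, and over the genes brighter than the median gene 10.4% passed. Of the members 42 lay in that brighter part, and 3 of them (7.14%) passed, a share near that background. Differences ran from -0.46 for Psme4 to 0.46 for Psmb3l2, and 38 of the 48 lay within 0.25 of 0 on the log2 scale (79.2%), as did 79.4% of the genes brighter than the median and 72.7% of all genes. The 95% interval of the difference lay between -0.5 and 0.5 for 37 members, and the furthest limits were -0.93 (Psme4) and 0.64 (Psmd8).

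With the experiment as a block, 9 members rose and 4 fell, against a background of 39.3% of all genes. Of the 9083 genes brighter than the median gene, that fit called 1293 higher and 1118 lower. In the deposited values, 1 member was higher and 10 were lower with Ncoa3 shRNA, where 47.2% of all genes passed. Among the brighter genes, 115 were higher and 2685 lower there. The groups did not overlap for 12 members that were higher and 4 that were lower with Ncoa3 shRNA. These are 33.3% of the members, against 40.5% of all genes and 31.0% of the brighter genes. Most members lie in the brighter part, so the shares of all genes are not their closest background. No member passed without experiment 1 or without experiment 2, where 225 and 99 of all genes passed. Without experiment 3, in contrast, 10 members rose and 4 fell, and 8352 of all genes passed.

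**Figure D1:**
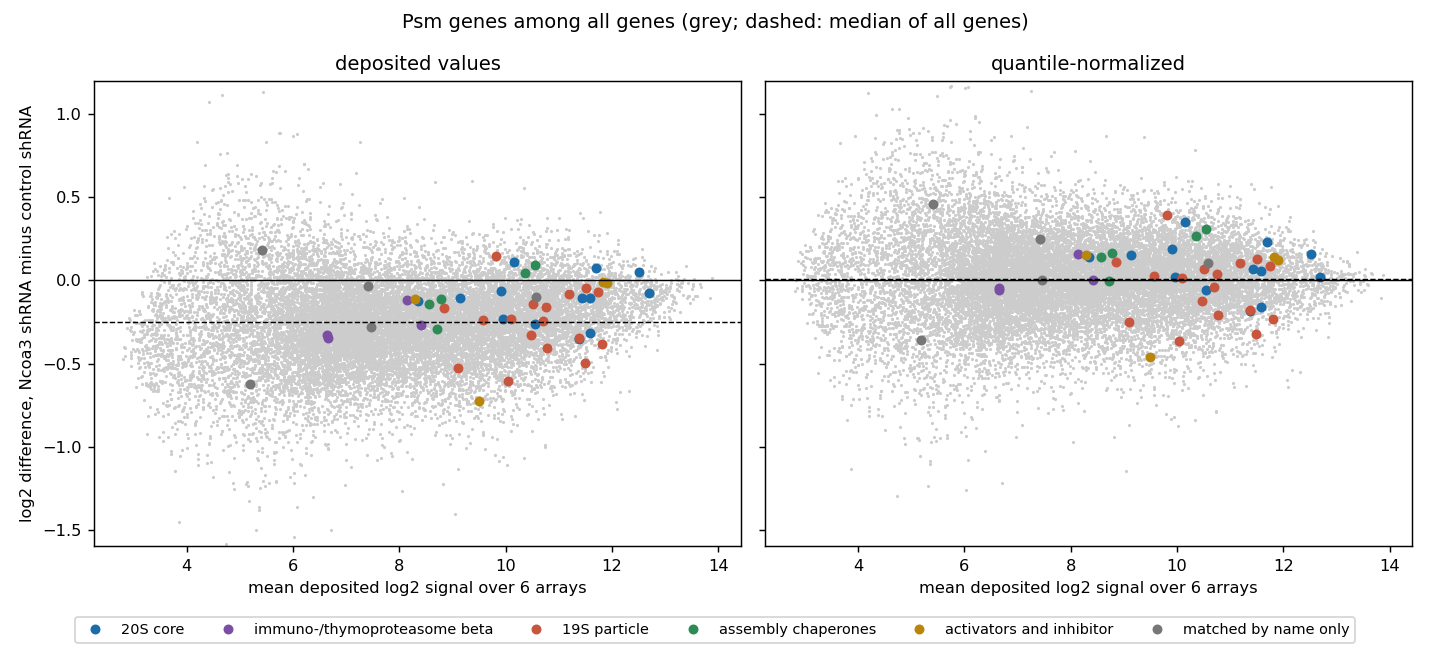
Log2 difference (Ncoa3 shRNA minus control shRNA) of each gene against its mean deposited log2 signal, with all genes in grey and the 48 Psm genes coloured by class. In the deposited values (left) the median of all genes, the dashed line, is at -0.25 and 41 of the 48 members lie below 0, while after quantile normalization (right) 32 lie above 0 and 16 below. The axis leaves out 6 of all genes.

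The 20S core had 13 measured genes, 6 of the alpha ring and 7 of the constitutive beta ring, and 0 passed limma's test. Of the 13, 4 had an unadjusted p under 0.05, and with the experiment as a block 2 were higher and 1 lower. Counts at an unadjusted p, here and below, were not set against a share of all genes and describe the class alone. Of all genes 19.5% passed even the adjusted threshold. Psma3 and Psma8, for which no unshared probe set was found, are not analysed here. The core had 10 differences above 0 and 3 below. Its median difference was 0.07, against 0.01 over all genes. As deposited, the median was -0.11, against -0.25 over all genes, so the sign of the class turns with the scaling. Across probe sets the mean deposited signal on control shRNA arrays ran from 8.40 for Psmb3 to 12.73 for Psmb2, though signals of different probe sets do not rank transcripts by amount.

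Of the alpha ring, which gates the entry to the core, Psma2 had the highest difference. Its log2 signal was 10.52, 10.25 and 10.20 with Ncoa3 shRNA and 10.11, 9.88 and 9.93 with control shRNA. The groups did not overlap, and the difference was 0.35 ± 0.112 (SE; limma's adjusted p = 0.0777, and 0.0131 with the experiment as a block). As deposited they overlapped, with a difference of 0.11 (limma's adjusted p = 0.549; blocked, 0.101). Psma7 stood at 0.19 ± 0.0592, with an adjusted p of 0.0757 (0.0416 with the block). Its sign turned round in the deposited values, at -0.06 (limma's adjusted p = 0.215; blocked, 0.164). Psma1, Psma4 and Psma5 stood at 0.06, 0.02 and 0.16. The lowest of the ring was Psma6, with 10.57, 10.43 and 10.59 on Ncoa3 shRNA arrays and 10.58, 10.71 and 10.47 on control shRNA arrays, and its groups overlapped (difference -0.06 ± 0.0821; adjusted p = 0.688).

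None of the 3 genes of the constitutive proteolytic subunits passed. Psmb5, which encodes the chymotrypsin-like subunit, read 12.60, 12.65 and 12.54 on the Ncoa3 shRNA arrays and 12.50, 12.38 and 12.43 on the control shRNA arrays. Every Ncoa3 shRNA array was above every control shRNA array, by 0.16 ± 0.0473 on average (95% interval 0.05 to 0.28), which did not pass (adjusted p = 0.0619). As deposited the groups of Psmb5 overlapped, with a difference of 0.05 (limma's adjusted p = 0.456). Psmb7, the gene of the trypsin-like subunit, had 11.79, 11.79 and 11.83 with Ncoa3 shRNA, against 11.64, 11.38 and 11.69 with control shRNA. These normalized groups did not overlap (difference 0.23 ± 0.0842; adjusted p = 0.111), and experiment 2 differed most, at 0.40. As deposited the groups of Psmb7 overlapped, with a difference of 0.07 (limma's adjusted p = 0.443). Psmb6, the gene of the caspase-like subunit, had 11.79, 11.60 and 11.13 on Ncoa3 shRNA arrays and 11.84, 11.73 and 11.42 on control shRNA arrays. It was lower with Ncoa3 shRNA in each experiment, but the spread between experiments was larger than the difference of -0.16 ± 0.192 (adjusted p = 0.619). The other probe set of Psmb6 differed by -0.02. Differences between these 3 genes were not tested.

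Of the structural beta subunits, Psmb2, Psmb3 and Psmb4 stood at 0.02, 0.14 and 0.07. The lowest of the ring was Psmb1, with 11.32, 11.36 and 11.16 with Ncoa3 shRNA and 11.54, 11.57 and 11.29 with control shRNA. Its values lay below the control array of the same experiment each time, by 0.19 ± 0.0951 on average over overlapping groups, which passed with the block (adjusted p = 0.0281) and not without it (0.229).

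Proteasome genes are known targets of the transcription factor Nfe2l1, which binds antioxidant response elements. The core of this element, TGACNNNGC, was searched on both strands in RefSeq promoters (GRCr8) from 250 bases before to 50 bases after the gene start. Of the 43 proteasome genes, 38 had a promoter in the table. It held the letters in 7 of these 38 (18.4%) and in 12.1% of all promoters of this length. The 20S genes with a match were Psmb2, Psmb5 and Psmb6, 3 of 12 (25%). Their stretches are shown because these genes, with the same core before the start, had differences of 0.02, 0.16 and -0.16. Capitals mark the match, which begins 68 bases before the start in Psmb2, 60 in Psmb5 and 24 in Psmb6.
Psmb2, chr5:144254974-144255014, plus strand: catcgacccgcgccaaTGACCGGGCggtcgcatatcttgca
Psmb5, chr15:32047415-32047455, minus strand: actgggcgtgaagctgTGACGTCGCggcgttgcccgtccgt
Psmb6, chr10:55737848-55737888, plus strand: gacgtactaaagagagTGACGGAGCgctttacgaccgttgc

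The match in Psmb2 shares its first base with a CCAAT box, the sequence bound by the factor NF-Y. CCAAT, searched on both strands, was in 17 of the 38 promoters (44.7%) and in 37.5% of all promoters, and in 8 of 12 of the 20S genes. A match is a description of these letters and not of binding.

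The 4 beta genes used outside the constitutive core did not pass limma's test, and 0 of the 4 had an unadjusted p under 0.05. Psmb8, Psmb9 and Psmb10 are the proteolytic subunits of the immunoproteasome, and Psmb11 is the thymus form. Psmb8 had 6.68, 6.67 and 6.52 on Ncoa3 shRNA arrays and 6.73, 6.74 and 6.58 on control shRNA arrays, overlapping groups with a difference of -0.06 ± 0.0731 (limma's adjusted p = 0.627). Within each group its 3 deposited values were identical, so the deposited difference of -0.34 has no measured spread. Psmb9 had 8.22, 8.24 and 8.20 with Ncoa3 shRNA and 8.17, 8.02 and 7.98 with control shRNA. Its groups did not overlap, yet the difference of 0.16 ± 0.0708 did not pass (adjusted p = 0.171). The separation turned round in the deposited values, with 8.08 on all 3 Ncoa3 shRNA arrays and 8.30, 8.15 and 8.15 on the control shRNA arrays (difference -0.12). Psmb10 had 8.40, 8.43 and 8.42 with Ncoa3 shRNA and 8.42, 8.42 and 8.40 with control shRNA, a difference of 0.01 ± 0.0559 (adjusted p = 0.962). Psmb10 was lower in the deposited values, at -0.27, with the same deposited value on all 3 Ncoa3 shRNA arrays. The thymus gene Psmb11 stood at -0.05. The 95% intervals of all 4 genes lay between -0.24 and 0.33.

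In the RefSeq gene table (GRCr8), Psmb8 and Psmb9 lie beside the peptide transporter genes, in the order Tap2, Psmb8, Tap1, Psmb9. Tap1 stood at 0.28 (limma's adjusted p = 0.0481), but at -0.0066 in the deposited values (0.777). Its call was also lost after median centring (0.130) and in 7 of 9 fits with fewer arrays, all but those without Ncoa3 shRNA replicate 3 or experiment 3 (0.0607 to 0.375). Tap2 stood at -0.10 (0.616). Both genes are named for their place, a choice made with their values known. Of 10 listed markers of microglia, which are immune cells of the brain, 3 rose and 0 fell: Cx3cr1 (0.99), C1qb (0.46) and Aif1 (0.43). Over all genes 10.5% rose and 9.04% fell. Calls were rarer among genes brighter than the median gene (10.4% against 19.5%), and 0 of the 10 markers were that bright. With the experiment as a block 4 markers rose and 2 fell, C1qc (-0.20; limma's adjusted p = 0.00808) and Cd68 (-0.16; 0.0160), where 39.3% of all genes passed. As deposited, 1 marker was higher and 3 were lower, where 47.2% of all genes passed. Cx3cr1 (adjusted p = 0.109) and C1qb (0.260) did not pass there. All 3 calls were lost without experiment 1 or 2 (0.144 to 0.182), those of Cx3cr1 and C1qb also without control shRNA replicate 1 (0.0774 and 0.0515), that of Cx3cr1 without control shRNA replicate 2 (0.0746) and that of Aif1 without Ncoa3 shRNA replicate 1 (0.0515). The mean log2 signal of these 10 markers was 6.49 to 6.66 on Ncoa3 shRNA arrays and 6.36 to 6.39 on control shRNA arrays. Their part in the values of the immunoproteasome genes was not tested.

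**Figure D2:**
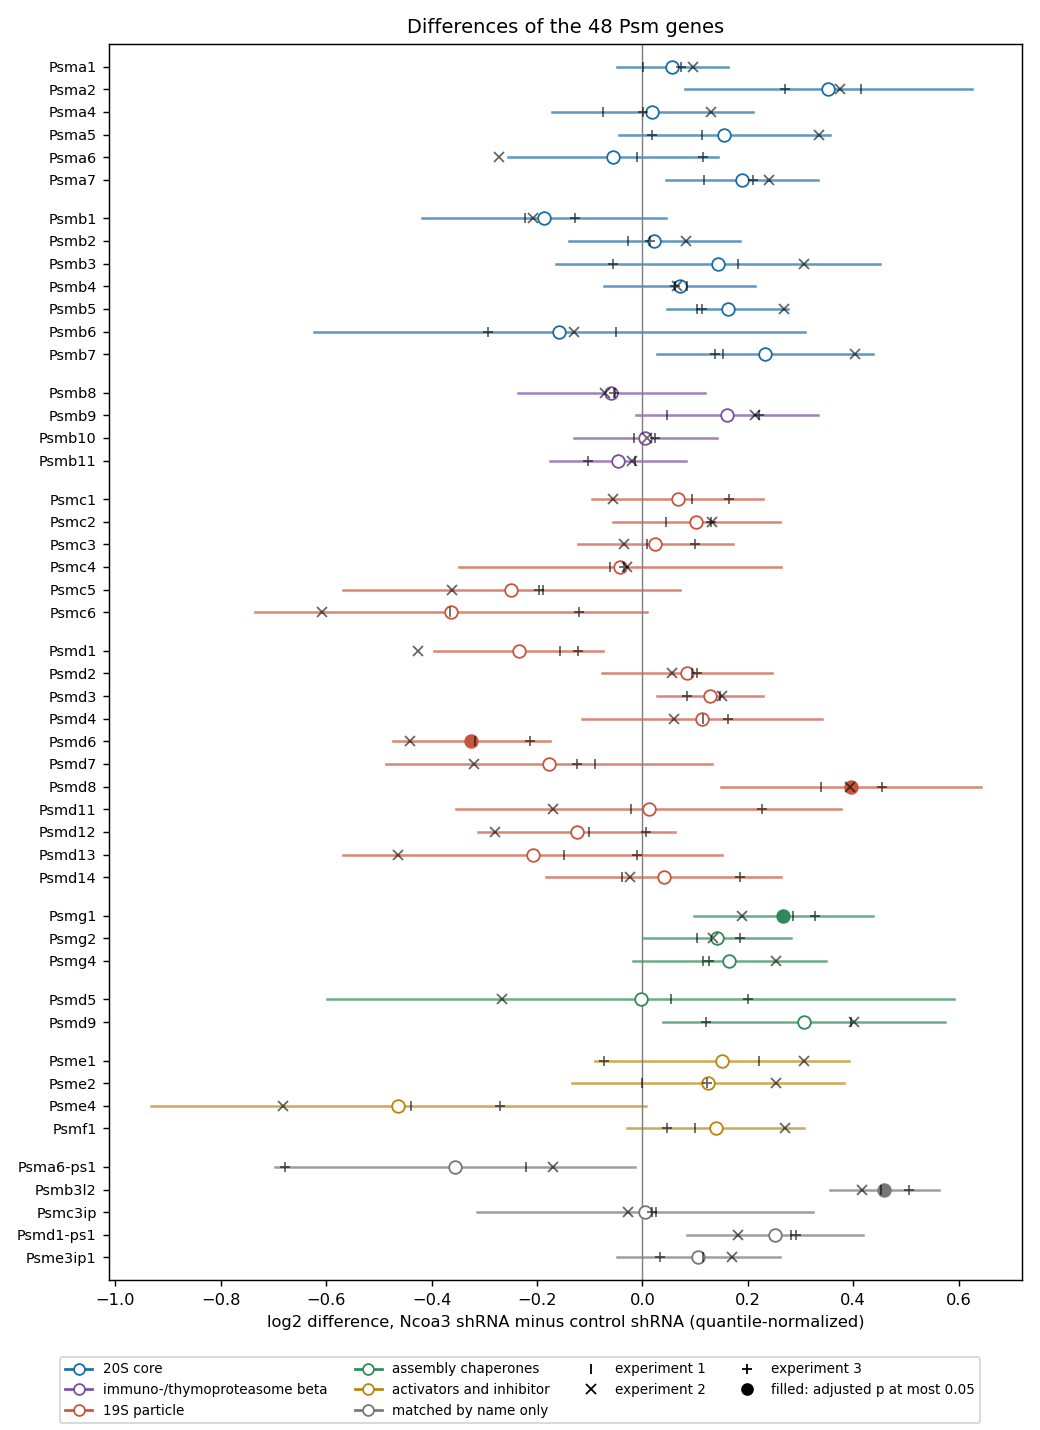
Log2 difference (Ncoa3 shRNA minus control shRNA, quantile-normalized) of each of the 48 Psm genes, grouped by class. Circles are means with 95% intervals from limma, filled at an adjusted p of at most 0.05, and black marks are the 3 experiments. Psmd6, Psmd8, Psmg1 and Psmb3l2 are filled, and most other intervals include 0.

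The 19S particle had 17 measured genes, of which 1 rose, 1 fell and 15 did not pass. Of the 17, 4 had an unadjusted p under 0.05 in limma's test. The median difference of the 19S was 0.01 (-0.24 in the deposited values), with 9 differences above 0 and 8 below. Psmd6, a scaffold subunit of the lid (probe set 17697491), fell. It had 11.39, 11.23 and 11.39 on Ncoa3 shRNA arrays and 11.71, 11.68 and 11.60 on control shRNA arrays. All 3 Ncoa3 shRNA arrays lay below all 3 control shRNA arrays, by 0.32 ± 0.0614 on average, 1.25-fold lower (difference -0.32; 95% interval -0.47 to -0.17; limma's adjusted p = 0.0169). With the experiment as a block limma's adjusted p was 0.0233. Its deposited difference was -0.50 (adjusted p = 0.00191). The call was lost without Ncoa3 shRNA replicate 1 (0.0506), control shRNA replicate 1 (0.0764) or 2 (0.0650), without experiment 1 (0.204) or 2 (0.188), and after median centring of the arrays (0.335).

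Psmd8, another lid subunit (probe set 17631343), rose. Its signal was 10.08, 10.07 and 9.90 with Ncoa3 shRNA, against 9.74, 9.68 and 9.44 with control shRNA. The groups did not overlap, and the rise was 0.40 ± 0.101 or 1.32-fold (95% interval 0.15 to 0.64; limma's adjusted p = 0.0426). With the experiment as a block limma's adjusted p was 0.00876. The deposited difference was smaller, 0.15 (adjusted p = 0.451). The call was also lost after median centring (0.242) and among brighter genes alone (0.0849). It was lost in 7 of 9 fits with fewer arrays, those without Ncoa3 shRNA replicate 1 (0.136) or 2 (0.139), without control shRNA replicate 1 (0.0778), 2 (0.101) or 3 (0.0585), and without experiment 1 (0.258) or 2 (0.293). The promoter of Psmd8 held neither of the letter motifs, and its stretch around the start is shown because it is one of only 2 genes that rose among the 43, with the first base of the gene in capitals.
Psmd8, chr1:93608640-93608789, minus strand: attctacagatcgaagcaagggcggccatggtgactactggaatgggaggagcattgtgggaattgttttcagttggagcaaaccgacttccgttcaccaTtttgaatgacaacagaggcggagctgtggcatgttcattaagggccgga

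The other lid and base subunits did not pass. Psmd1, a large scaffold of the base, came closest, at -0.23 ± 0.0658 with an adjusted p of 0.0549. For Psmd3, a scaffold of the lid, the difference was 0.13 (adjusted p = 0.0832; blocked, 0.0477). It passed with the block and had the same deposited value on all 3 control shRNA arrays. The direction turned round in the deposited values, where all 3 Ncoa3 shRNA arrays lay below that value (-0.04; limma's adjusted p = 0.117; blocked, 0.127). Psmd2, the other large scaffold of the base, stood at 0.08, and Psmd4, a ubiquitin receptor, at 0.11. The deubiquitylating subunit gene Psmd14 stood at 0.04 and its partner Psmd7 at -0.18. Psmd11, Psmd12 and Psmd13 stood at 0.01, -0.12 and -0.21.

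Of the 6 ATPases that unfold substrates, 0 passed limma's test, 0 had an unadjusted p under 0.05, and 1 fell with the block. The highest was Psmc2, with 11.27, 11.26 and 11.17 on Ncoa3 shRNA arrays and 11.22, 11.13 and 11.04 on control shRNA arrays, at 0.10 ± 0.0652 (adjusted p = 0.332). Psmc6 was the lowest, with 9.83, 9.59 and 10.19 with Ncoa3 shRNA, against 10.20, 10.19 and 10.31 with control shRNA. The Ncoa3 shRNA arrays of Psmc6 lay below every control array, the highest of them only just, and its difference of -0.36 ± 0.153 did not pass (adjusted p = 0.155). As deposited, it did (-0.61; adjusted p = 0.0247), with the same value on all 3 control shRNA arrays. The member that passed with the block was Psmc5 (-0.25; adjusted p = 0.0353, against 0.245 without it), and Psmc1, Psmc3 and Psmc4 at 0.07, 0.02 and -0.04.

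Of the 5 measured assembly chaperones, 1 rose and 4 did not pass, and 3 had an unadjusted p under 0.05 in limma's test. The share of all genes at an unadjusted p was not counted, and 19.5% of them passed the adjusted threshold. Psmg3 and Psmd10 have no value and are not analysed here. The median difference of the 5 was 0.17, and -0.11 in the deposited values. Psmg1, which pairs with Psmg2 to start the alpha ring (probe set 17668101), rose by 0.27 ± 0.0699 on the log2 scale. Its signal was 10.52, 10.52 and 10.45 on Ncoa3 shRNA arrays and 10.23, 10.33 and 10.13 on control shRNA arrays, with no overlap (95% interval 0.10 to 0.44; limma's adjusted p = 0.0453). With the experiment as a block limma's adjusted p was 0.0217. The deposited difference was 0.05 (adjusted p = 0.710). It was no longer called after median centring (0.288), among brighter genes alone (0.0849), or in 8 of 9 fits with fewer arrays. Without Ncoa3 shRNA replicate 1, 2 or 3 the adjusted p was 0.143, 0.141 or 0.0600. Without control shRNA replicate 1, 2 or 3 it was 0.145, 0.0588 or 0.0714, and without experiment 1 or 2 it was 0.384 or 0.225. Its promoter, shown as the other gene that rose, held neither motif, and the first base of the gene is in capitals.
Psmg1, chr11:48754991-48755140, minus strand: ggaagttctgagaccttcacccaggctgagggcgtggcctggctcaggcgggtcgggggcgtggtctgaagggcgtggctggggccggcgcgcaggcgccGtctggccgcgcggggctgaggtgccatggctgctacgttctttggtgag

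The partner Psmg2 had 8.61, 8.64 and 8.64 with Ncoa3 shRNA and 8.51, 8.51 and 8.46 with control shRNA. Its groups did not overlap and the difference was 0.14 ± 0.0578 (limma's adjusted p = 0.147, and 0.0455 with the block), whereas in the deposited values Psmg2 was lower, at -0.14 (0.00795). The deposited value of Psmg2 was the same on all 3 Ncoa3 shRNA arrays, so that group has no measured spread. Psmg4 stood at 0.17 (adjusted p = 0.185). Of the 19S chaperones, Psmd9 had 10.66, 10.67 and 10.75 on Ncoa3 shRNA arrays and 10.26, 10.27 and 10.63 on control shRNA arrays. It was higher in each experiment, by 0.31 ± 0.110 (adjusted p = 0.108, and 0.0496 with the block), with the same deposited value on all 3 Ncoa3 shRNA arrays. As deposited, the difference was 0.09 (limma's adjusted p = 0.410; blocked, 0.378). In experiment 3 the deposited value was then lower with Ncoa3 shRNA (10.59 against 10.68). Psmd5 had 8.82, 8.85 and 8.42 with Ncoa3 shRNA, against 8.76, 9.12 and 8.22 with control shRNA. The spread between experiments of Psmd5 was the widest of the chaperones and its mean difference was -0.0035 ± 0.244 (adjusted p = 0.994).

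**Figure D3:**
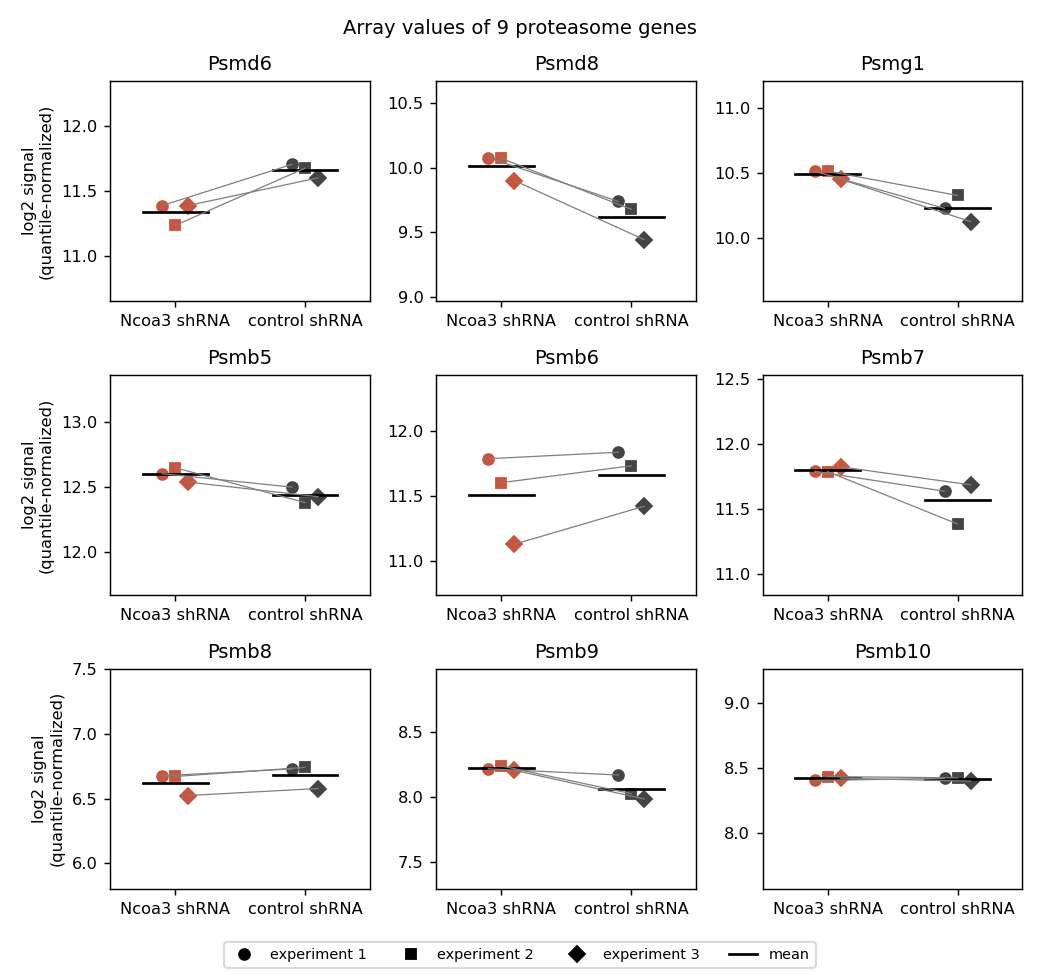
Quantile-normalized log2 signal of 9 proteasome genes on the 6 arrays, Ncoa3 shRNA left and control shRNA right, with the arrays of an experiment joined and the group mean as a bar; every panel spans the same range of log2 units. The groups are apart for Psmd6, Psmd8, Psmg1, Psmb5, Psmb7 and Psmb9, and experiment 3 is lowest in both groups for Psmb6, Psmb8, Psmb9, Psmd8 and Psmg1.

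The activators and the inhibitor that bind the ends of the core did not pass limma's test, and 0 of the 4 had an unadjusted p under 0.05. Psme4, the gene of the activator PA200, had the lowest difference of all members. Its signal was 9.26, 8.91 and 9.64 with Ncoa3 shRNA, against 9.70, 9.59 and 9.91 with control shRNA. It was lower in each experiment although the groups overlapped, at -0.46 ± 0.193 (limma's adjusted p = 0.153, and 0.0331 with the block; 0.0345 in the deposited values). Psme1, a PA28 subunit, was the highest of the 4, with 8.48, 8.44 and 8.18 with Ncoa3 shRNA, against 8.26, 8.14 and 8.25 with control shRNA (0.15 ± 0.0990; adjusted p = 0.343). Its partner Psme2 stood at 0.13 and the inhibitor gene Psmf1 at 0.14. Psme3 lay only on probe sets shared with neighbouring genes and is not analysed here.

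Of the 5 genes that match by name only, Psmb3l2, named for its likeness to Psmb3, rose. It had 5.65, 5.63 and 5.63 with Ncoa3 shRNA and 5.20, 5.22 and 5.12 with control shRNA, a rise of 0.46 ± 0.0426 (limma's adjusted p = 0.00173), and 0.19 in the deposited values (0.0246). With the experiment as a block limma's adjusted p was 0.00360. The call was lost without experiment 1 (0.0845) or 2 (0.0843). Psmb3l2 was dimmer than the median gene, whose mean deposited signal was 7.89, and Psmb3 itself did not pass. The pseudogene Psma6-ps1 was the lowest of the 5, with 4.93, 5.09 and 5.01 with Ncoa3 shRNA and 5.15, 5.26 and 5.68 with control shRNA (-0.36 ± 0.140; adjusted p = 0.136). For Psmd1-ps1 the difference was 0.25 (0.0514; blocked, 0.0141), but -0.03 in the deposited values (0.353; blocked, 0.327). Psmc3ip, a meiotic recombination gene, stood at 0.01 and Psme3ip1, whose product binds the activator Psme3, at 0.11. Probe sets of pseudogenes and close copies may share sequence with their parent genes, so these values are uncertain.

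The classes of subunits were then compared by their medians, which have no test because members are not replicates. The median difference was 0.17 for the chaperones, 0.13 for the activators and the inhibitor, 0.07 for the 20S core, 0.01 for the 19S particle and -0.02 for the immunoproteasome and thymus subunits. The order of the first 3 depended on the scaling: the activators and the inhibitor were highest in the deposited values (-0.066, against -0.107 for the 20S and -0.113 for the chaperones) and after median centring (0.216, against 0.175 and 0.169). By experiment the 20S median was 0.08, 0.13 and 0.06 and the 19S median -0.04, -0.06 and 0.08. The 19S median was thus below that of the 20S in experiments 1 and 2 and above it in experiment 3. The medians of the chaperones were 0.12, 0.19 and 0.19. On single arrays, the 20S median deviation minus that of the 19S was 0.08, 0.08 and 0.06 with Ncoa3 shRNA, against -0.02, -0.25 and 0.02 with control shRNA. The control shRNA array of experiment 2 stood apart, with a 19S deviation of 0.14 and a 20S deviation of -0.11. Without that array the median difference was 0.08 for the 20S and 0.03 for the 19S. Without the control shRNA array of experiment 3 it was -0.13 for the 19S.

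**Figure D4:**
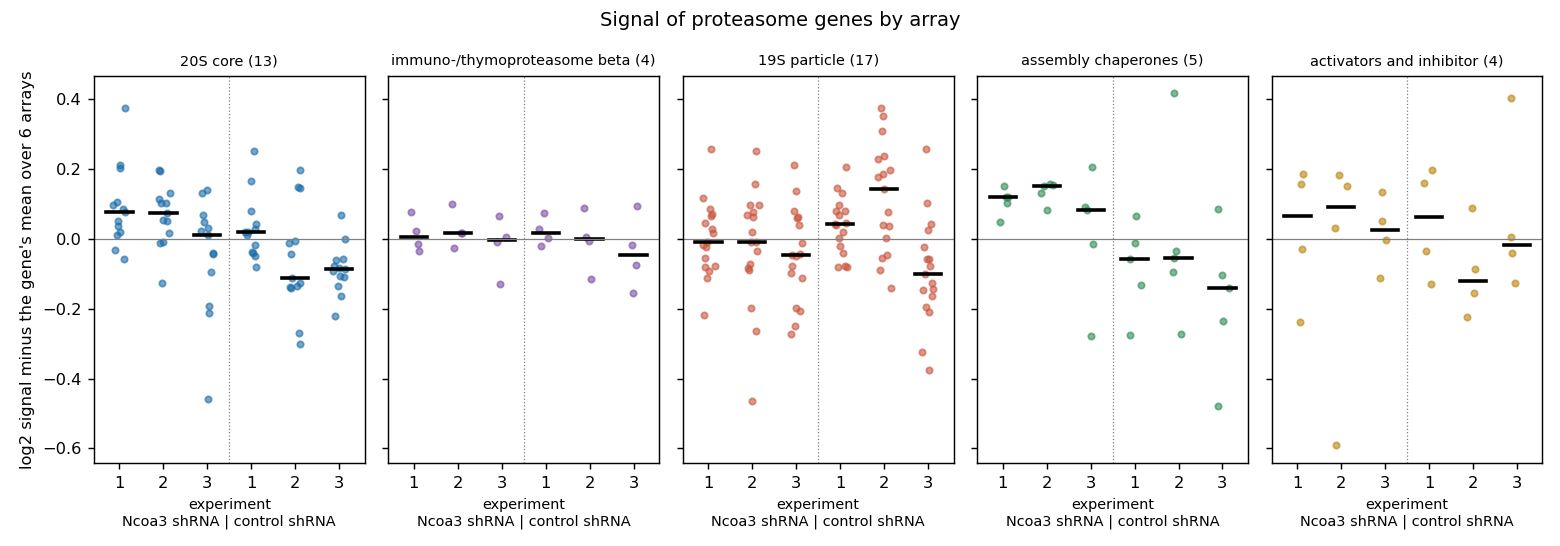
Quantile-normalized log2 signal of each proteasome gene minus its own mean over the 6 arrays, by class and array, with Ncoa3 shRNA experiments 1 to 3 left of the dotted line and control shRNA right of it. Bars are class medians. The 19S genes are highest on the control shRNA array of experiment 2, where the 20S median is -0.11.

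Differences between the experiments, tested in both groups at once with limma's F test, passed for 4 of the 48 members, against 18.8% of all genes. They were Psmb6 (adjusted p = 0.0484), the ATPase gene Psmc4 (0.0484), Psmb8 (0.0484) and Psmc3ip (0.0395). Psmc4 had 10.68, 10.86 and 10.50 with Ncoa3 shRNA and 10.74, 10.89 and 10.54 with control shRNA. It was lowest in experiment 3 and highest in experiment 2 in both groups, while its group difference was -0.04. Psmb6 and Psmb8 were also lowest in experiment 3 in both groups, but for Psmb8, with 1 deposited value per group, that pattern comes from the normalization. Of the members, only Psmc4 passed in the deposited values, where 1.91% of all genes did. In both groups, 24 of the 48 members (50%) had their lowest signal in experiment 3, as did 51.1% of all genes. Of 7 measured markers of astrocytes, 6 passed the F test and 6 were highest in experiment 3 in both groups. Over all 18166 genes 3182 were highest there in both groups, and 1835 of the 9083 genes brighter than the median. Their part in the differences between experiments was not tested. In the deposited values the shares lowest in experiment 3 in both groups were 52.1% of the members, 29.7% of all genes and 51.7% of the genes brighter than the median.

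Genes that work with the proteasome were counted in 5 lists. Over all genes 19.5% passed, 39.3% with the experiment as a block and 47.2% as deposited. Of 9 measured proteasome parts and partners with other names 0 passed limma's test (2 at an unadjusted p under 0.05, and 1 fell with the block), among them Pomp, which matures the core (-0.11; limma's adjusted p = 0.296), and the deubiquitylase gene Usp14 (-0.19; 0.313). As deposited, 3 of these 9 were lower at an adjusted p of 0.05. Of 13 genes linked to proteasome gene transcription 2 rose and 0 fell (3 had an unadjusted p under 0.05). With the experiment as a block 4 rose and 4 fell: Keap1 and Mafg also rose, and Foxo4, Nfya, Nfyb and Ddi2 fell. As deposited, 0 were higher and 1 was lower. The 2 that rose without the block were Mafk (0.26; 0.0255) and Maff (0.25; 0.0317), small Maf partners of Nfe2l1 and Nfe2l2, and in the deposited values neither differed by more than 0.03 from 0. Nfe2l1 itself stood at -0.06 (0.697) and Nfe2l2 at 0.16 (0.212). The list of ubiquitin and activating enzymes had 5 measured genes, Uba1, Uba6, Uba3, Nae1 and Nedd8, none of them a gene of ubiquitin itself. Of these 1 fell, Nae1, a subunit of the NEDD8-activating enzyme (-0.38; 0.0128). Of 13 genes of ubiquitin shuttles and p97 1 rose, Sqstm1, which carries ubiquitylated cargo to autophagy (0.36; 0.0230). Its deposited difference was 0.11 (0.363), and its call was lost after median centring (0.197) and among brighter genes alone (0.0548). Median centring also ended the calls of Mafk (limma's adjusted p = 0.211), Maff (0.148) and Nae1 (0.205). Mafk, Maff and Nae1 each lost their call in 6 of 9 fits with fewer arrays (adjusted p up to 0.374, 0.407 and 0.274) and Sqstm1 in 5 (up to 0.226): for all 4, without experiment 1 or 2, Ncoa3 shRNA replicate 1 or 2 or control shRNA replicate 1, and for the first 3 also without control shRNA replicate 2.

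The antigen processing and interferon list had 5 of 17 measured genes higher and 4 lower, where 10.5% of all genes were higher and 9.04% lower. Of the 17, 4 were brighter than the median gene, and calls were rarer among such brighter genes (10.4% against 19.5% of all genes). With the experiment as a block 7 were higher and 5 lower, where 39.3% of all genes passed. As deposited 2 were higher and 9 lower, where 47.2% of all genes passed. Oas1a, an interferon-induced enzyme, fell by 1.08 (difference -1.08; limma's adjusted p = 5.98e-04), and Isg15, a ubiquitin-like protein, stood at -0.25 (0.00880). Ifit1 rose by 0.43 (0.00467) and Tapbp, which loads peptides, by 0.27 (0.0242; -0.01 in the deposited values). Median centring ended the calls of Isg15 (limma's adjusted p = 0.110) and Tapbp (0.139) and kept those of Oas1a (6.74e-04) and Ifit1 (0.0159). Dropping experiment 1 or 2 ended the calls of Ifit1 and Isg15 (highest adjusted p 0.130 and 0.187). That of Tapbp ended in the same 6 of 9 fits as Mafk's (up to 0.395), and Oas1a passed in all 9. Whether the list differs from the proteasome genes was not tested.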

How the data were processed

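The deposited table holds log2 signals, 1 per probe set and array, for 36685 probe sets on 6 arrays. Per the submitters' processing notes, the authors used Affymetrix Expression Console. No source used here states its version, its normalization or a genome build. Probe sets were named through the platform annotation: 18511 have 1 gene symbol, and for the 291 genes with several the brightest was used, which left 18166 genes. All 6 arrays were quantile-normalized and the groups compared by the two-sided moderated test of limma 3.58.1 under R 4.3.3 (eBayes with a trend); p-values were adjusted over all genes by the Benjamini-Hochberg method and called at 0.05. The block is the experiment number, which the labels give as shared. Deviations of the 2 arrays of an experiment correlated at r = 0.72, 0.55 and 0.78 over genes. An F test compared the experiments. Fits were tested on simulated data. Where nothing says that experiments used separate litters, p-values measure the spread between these samples. The number of arrays limits the precision.

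Classes follow subunit nomenclature. Named in full were members past the threshold, the proteolytic subunits, and the highest and lowest of each class; of other lists, up to 4 genes past the threshold. Members and lists were chosen with earlier results of these data known. Of the 5 genes matched by name only, 4 were set apart after the annotation was read. Alternatives were the deposited values, median centring, the mean of probe sets, brighter genes alone, the block, no trend, and leaving out arrays or experiments.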

Additional observations from a re-analysis of the deposited data

How the results depend on the processing

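The counts of calls depended on the scaling and on single experiments, and the direction of the 4 called members did not, in the alternatives run. Over all genes, 1905 rose and 1643 fell. The counts were 722 and 7857 in the deposited values, 1027 and 841 after median centring, 220 and 213 among brighter genes, 3777 and 3370 with the replicate block, and 786 and 10146 with the block in the deposited values. Of the members, 3 rose and 1 fell, against 1 and 10 in the deposited values, 1 and 0 after median centring, 0 and 1 among brighter genes, 9 and 4 with the block, 2 and 18 with the block in the deposited values, and 5 and 1 without the trend. With 1 array or experiment left out, 50 to 4433 genes rose and 49 to 3919 fell, and 0 to 10 members rose and 0 to 4 fell. In such fits the median difference ran from 0.058 to 0.11 for the 20S, -0.13 to 0.054 for the 19S, 0.14 to 0.21 for the chaperones and -0.025 to -0.0023 for the immunoproteasome and thymus genes. In the deposited values these medians were -0.11, -0.24, -0.11 and -0.30. Median centring gave 0.17 for the 20S, and brighter genes alone gave 0.083 for the immunoproteasome genes, of which 2 remained. Among 565 values of named genes under alternatives, 12 changed sign with a call on one side, with and without the block: Psmb10 (-0.27), Psmg2 (-0.14), Tapbp (-0.0069), Tap1 (-0.0066), Mafk (-0.017) and Maff (-0.025) in the deposited values. A further 18 changed sign with no call. The F test passed 347 genes and 1 member in the deposited values, 10074 and 29 after median centring, 2073 genes among brighter ones, and 1473 genes and 2 members without the trend, against 3411 and 4. Without an experiment, each group holds 2 arrays. The cause of the shifts was not tested.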
